A study of Mus musculus with 4 samples.

Results

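The nuclear factor I (NFI) family consists of 4 genes in the mouse, Nfia, Nfib, Nfic and Nfix, which encode transcription factors that bind DNA as dimers. Its expression was examined in the prefrontal cortex of female mice on single-channel arrays that carry many short DNA probes per transcript, grouped into probe sets. Control arrays were hybridised with total RNA of FVB/N mice and transgenic arrays with total RNA of mice overexpressing a human gene, that for synaptic AChE (acetylcholinesterase), whose enzyme ends signalling by acetylcholine. Each array received RNA pooled from 4 animals, and there were 2 pools per group. The sources used here do not give the age of the mice, the strain of the transgenic line, the number of founder lines or the promoter of the transgene, so a difference of strain and an effect of the transgene cannot be told apart. Nothing in the labels says that pools of one group held different mice, and p-values therefore measure the spread between these samples only, which may be technical.

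The members are all probe sets whose single gene name is one of the 4 symbols. They number 8 of the 12422 probe sets analysed, with 2 for each gene. The family itself was chosen on the difference between transgenic and control arrays, because probe sets of Nfix and Nfib had been seen among the largest rises in these same data. The differences below are therefore a description, and no p-value is given for a member.

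All NFI proteins share a DNA-binding and dimerisation domain at the amino terminus and differ more in the carboxy-terminal part, which acts on transcription. Nfia, Nfib and Nfix are known from the developing forebrain, where they act in the switch of progenitors from making neurons to making glia, in midline glia and in the growth of the corpus callosum. Nfic is widely expressed and is best known for its part in forming tooth roots. NFI proteins are also present in mature astrocytes and in many neurons. They recognise the palindrome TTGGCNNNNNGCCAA, and a single arm of it, TTGGC on one strand or GCCAA on the other, can be bound more weakly.

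Promoter windows are shown here because the family's own recognition sequence can be looked for in them. The RefSeq promoter table of mouse assembly GRCm38.p6 holds windows from 250 bases before to 50 bases after a transcript start, and it gave 6 windows for 3 of the 4 genes: 1 for Nfia, 1 for Nfic and 4 for Nfix. The windows below run 5′ to 3′ on the strand of the gene, with each single arm of the palindrome in capitals. That of Nfia lies on the plus strand at chr4:97581693-97581992, that of Nfic on the minus strand at chr10:81427124-81427423, and that of Nfix, the one of its 4 with the most arms, on the minus strand at chr8:84772826-84773125.
Nfia: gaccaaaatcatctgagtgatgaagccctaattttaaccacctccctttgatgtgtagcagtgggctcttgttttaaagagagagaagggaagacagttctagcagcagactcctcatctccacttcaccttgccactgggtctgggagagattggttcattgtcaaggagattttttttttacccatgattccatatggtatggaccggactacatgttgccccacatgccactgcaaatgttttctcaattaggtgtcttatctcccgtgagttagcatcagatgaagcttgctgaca
Nfic: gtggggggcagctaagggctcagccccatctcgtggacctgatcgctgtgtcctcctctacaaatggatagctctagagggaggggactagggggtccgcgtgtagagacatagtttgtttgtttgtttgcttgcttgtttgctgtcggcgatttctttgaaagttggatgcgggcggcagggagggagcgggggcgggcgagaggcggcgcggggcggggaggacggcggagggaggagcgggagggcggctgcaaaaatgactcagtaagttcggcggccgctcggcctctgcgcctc
Nfix: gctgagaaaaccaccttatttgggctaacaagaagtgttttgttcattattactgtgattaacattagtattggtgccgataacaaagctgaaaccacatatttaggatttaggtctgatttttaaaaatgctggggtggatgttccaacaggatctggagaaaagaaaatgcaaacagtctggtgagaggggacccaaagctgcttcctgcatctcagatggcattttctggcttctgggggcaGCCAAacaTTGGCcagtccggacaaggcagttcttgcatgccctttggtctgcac
The Nfix window held 2 arms, GCCAA followed closely by TTGGC, which is the reverse order of the palindrome. Of the other 3 Nfix windows 2 held 1 arm each and 1 held none, and the windows of Nfia and Nfic held none. An arm on either strand stood in 46.7% of all 32851 windows of this length and 2 or more in 14.4%, so 3 of 6 for the family is near the general share. The whole palindrome stood in 0 of the 6 windows and in 12 windows of the table (0.0365%). These are matches of letters in a short window, and the arrays do not say which start of Nfix was used.

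Each probe set was designed on a deposited sequence, and both probe sets of a gene came from different ones. Those of Nfia were made from D90173 and D90174, those of Nfib from Y07686 and Y07685, those of Nfic from AI849075 and Y07693, and those of Nfix from Y07688 and AA002843. The prefixes AA and AI mark expressed sequence tags, which are single-pass reads of cDNA clones, so 2 of the 8 probe sets came from tags and 6 from other entries. Probe sequences were not used here, and whether probes of one NFI gene also bind transcripts of another was not tested.

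Values are the authors' deposited intensities on a linear scale, with similar medians on every array. An intensity floor was set at the 25th percentile of all values, 19.675, below which values are not ordered. A log2 change is the mean log2 floored intensity of the transgenic pools minus that of the control pools, and a fold is 2 to that power. Where both control pools lay under the floor the fold is a lower bound that holds for this floor, and a higher floor lowers it.

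Depth on arrays is set by their number and brightness. Median intensity ran from 86.6 to 88.2 over the 4 arrays. Within groups the floored log2 intensities correlated across probe sets, which are no independent replicates, at r = 0.982 (control) and 0.983 (transgenic), and across groups at 0.958 to 0.961. The typical difference between 2 pools of a group was 0.17 for control and 0.20 for transgenic pools (median absolute log2 difference over tested probe sets). Xist, whose transcript silences an X chromosome in females, gave 29.3 and 21.1 on the control arrays, close to the floor, and 178.5 and 228 on the transgenic arrays, although the labels give every pool as female. The mouse Ache probe set gave control values of 599.5 and 621.9 and transgenic values of 365.3 and 355.6; the annotation assigns it to the mouse gene, and whether it reads the human transgene was not tested.

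Nfix had both the largest and the smallest change among the family's tested probe sets. Its probe set 101930_at, made from Y07688, gave 49.6 and 61.4 for the control arrays against 1921 and 1778 for the transgenic arrays. The groups lay far apart, and the log2 change was 5.07 ± 0.17 (SE, n = 2 pools per group), a fold of 33.5. The control pools differed from each other by 0.31 and the transgenic pools by 0.11 on the log2 scale. The other Nfix probe set, 100307_at, made from the expressed sequence tag AA002843, gave control values of 119 and 114.4 and transgenic values of 121.2 and 142. Here too both transgenic pools lay above both control pools, but only slightly, and the log2 change of 0.17 ± 0.21 was smaller than its SE and than the 0.23 between the 2 transgenic pools. Ordered by log2 change from the highest rise down, 1 Nfix probe set stood at position 4 of 7453 tested probe sets and the other at position 2097.

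Nfib was higher at both of its probe sets. At 99440_at, made from Y07686, the control pools read 22.1 and 29.6 and the transgenic pools 716.5 and 750.9. The control values lay just above the floor and the transgenic values close together, with a log2 change of 4.84 ± 0.22 and a fold of 28.7. At 160859_s_at, made from Y07685, the control pools read 8.8 and 16.1, both under the floor, and the transgenic pools 571.9 and 555.4. The log2 change was 4.84 ± 0.22, which means at least 28.6-fold higher with this floor. These 2 values agree closely, differing by 0.0017 on the log2 scale, but that agreement rests in part on the floor, since the ratio of mean intensities was 28.4 at the first probe set and 45.3 at the second. The suffix _s_at marks a probe set whose probes match more than 1 sequence of the design.

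Nfic was moderately higher. Its probe set 92241_at, made from the expressed sequence tag AI849075, gave control values of 231 and 224.3 and transgenic values of 514.9 and 707.5. The control pools were alike and the transgenic pools differed by 0.46 on the log2 scale, less than the change of 1.41 ± 0.18, a fold of 2.65. At 93006_at, made from Y07693, the control pools read 15.1 and 15.9 and the transgenic pools 32.3 and 39.2. Both control values lay under the floor and both transgenic values only a little above it. With this floor the transgenic level was at least 1.81-fold higher.

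Nfia, the family member best known for starting the formation of astrocytes, gave dim signals. Its probe set 92893_at, made from D90173, gave control values of 3.7 and 3.8 and transgenic values of 64.2 and 73.6. Only the transgenic pools lay above the floor, and with this floor they were at least 3.49-fold higher than the control pools. The second Nfia probe set, 92894_s_at, made from D90174, gave control values of 8.8 and 4.4 and transgenic values of 9.3 and 12.9. All 4 values lay under the floor, so this probe set gives no direction.

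**Figure D1:**
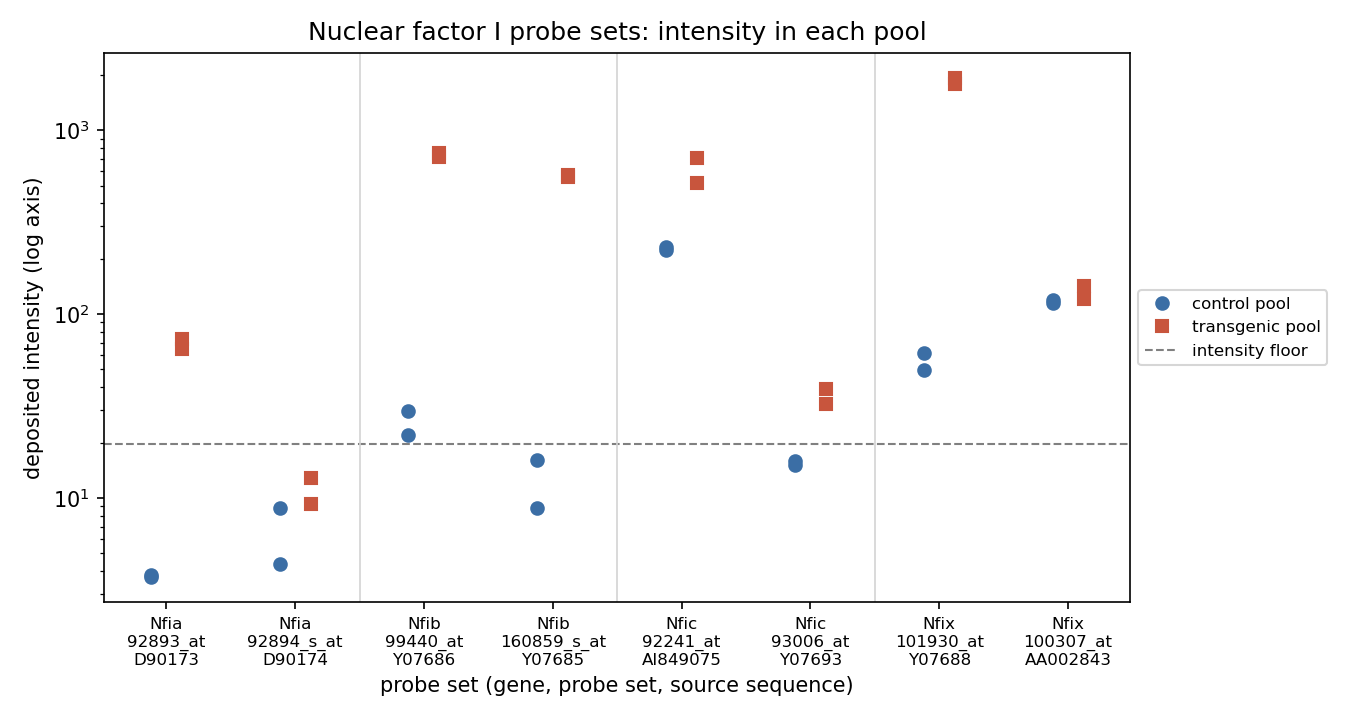
Deposited intensity (log axis) of the 8 NFI probe sets in each control pool (circles) and transgenic pool (squares), with gene, probe set and source sequence under each column and the floor of 19.675 as a dashed line. Transgenic pools stand far above control pools at Nfix 101930_at and at both Nfib probe sets, and nearly level with them at Nfix 100307_at.

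Across the family, the floored values of both transgenic pools lay above those of both control pools at 7 of 8 probe sets, with Nfia 92894_s_at as the exception. Over all 12422 probe sets the same held for 17.2%. A log2 change over 2 was reached by 3 NFI probe sets, those of Nfib and 101930_at of Nfix, against 1.58% of tested probe sets. A limma fit over all probe sets whose mean log2 intensity lay above the 40th percentile (an intensity of 49.4) left 5 of the 8 members tested, of 3 genes. Neither Nfia probe set nor Nfic 93006_at was bright enough. Of the 5, 4 were called higher (Benjamini-Hochberg adjusted p under 0.05) and 0 lower, and 100307_at of Nfix was not called. Over all 7453 tested probe sets 5.46% were called higher and 4.56% lower, and the median log2 change was -0.03 (quartiles -0.26 and 0.21). Because the contrast chose the family, nothing is read from these shares. Both Nfib probe sets passed the brightness filter only through the transgenic pools, so a difference was built into their passing.

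**Figure D2:**
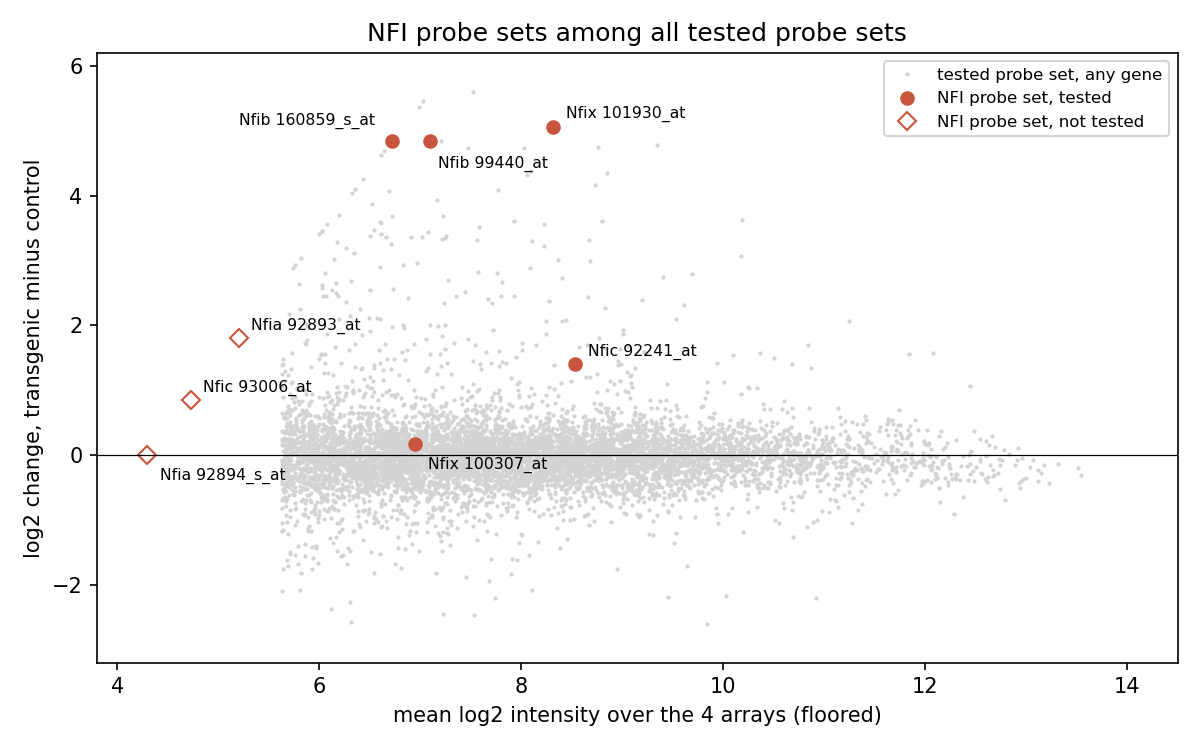
Log2 change (transgenic minus control) against mean log2 intensity over the 4 arrays, for the 7453 tested probe sets (grey) and the 8 NFI probe sets (filled circles tested, open diamonds not tested). Nfix 101930_at and both Nfib probe sets lie near the upper edge at 4.84 to 5.07, whereas Nfix 100307_at lies at 0.17 within the bulk of probe sets.

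The disagreement between the Nfix probe sets was large for these arrays. Among the 909 genes with 2 or more tested probe sets, the highest and lowest log2 change of a gene lay a median of 0.36 apart, with an upper quartile of 0.65 and a 95th percentile of 1.79. For Nfix they lay 4.90 apart, and 5 genes had a larger difference. The family was chosen in part on the large rise of an Nfix probe set. That choice favours a large difference, so nothing is read from this position. A difference over 4 was found in 9 genes. The labels do not say whether control and transgenic RNA were hybridised to the same version of the array. The Nfix and Nfib folds are differences between these arrays, and the part of the array version in them was not tested. The changes of both Nfib probe sets lay nearly together, and 904 genes had a larger difference. That position rests on the floor, to which both control values of 160859_s_at were raised. With the floor at the 10th percentile 99440_at had 4.84 and 160859_s_at 5.57. With the floor at the 40th percentile they had 3.85 and 3.47. The untested probe sets allow no difference of this kind to be given for Nfia and Nfic. The source of the probe set also went with its change across the array. Tags were recognised by the prefixes AA, AI, AV, AW, BB, BE and BF, so any tag with another prefix counted among the other entries. Among tested probe sets made from such expressed sequence tags 0.666% (23 of 3451) had a log2 change over 2. The share was 2.64% (80 of 3027) for those made from other named entries and 1.54% (15 of 975) for those without a named source. In the NFI family 0 of 2 probe sets from tags and 3 of 6 from other entries did so, but 3 of these 6 were not tested. The family was chosen on its rises, so nothing is read from this split. Whether the sequence of origin plays a part in the NFI values was not tested.

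Genes next to the NFI genes were read beside them. For each NFI gene the 3 nearest measured genes on either side were taken in RefSeq order, which gave 24 genes, of which 15 had a bright enough probe set (the brightest of each gene was read). They were looked up after the NFI values were known. Distances in bases were not read, so near below means only within this RefSeq order of measured genes. Of these 15, 1 was called higher and 1 lower (13.3% together, against 5.46% higher and 4.56% lower over all tested probe sets), with a median log2 change of -0.12. The rise was that of Ptprd, a receptor tyrosine phosphatase of synapses that lies near Nfib, at 0.99 ± 0.18. The fall was that of Pip5k1c, a lipid kinase gene near Nfic, at -2.37 ± 0.28, opposite in direction to Nfic, and it passed the brightness filter only through the control pools. At their brightest probe set the other 13 ranged from -0.90 to 0.32. The further probe sets of these genes gave wider values. Over all 19 tested probe sets of the 15 genes the log2 changes ran from -2.37 to 3.69, with 3 called higher and 2 lower, in 4 genes. Gna11, a G protein subunit gene near Nfic, had 2.45 ± 0.17 at 102196_at but -0.12 ± 0.18 at its brightest. Mpdz, a scaffold protein gene near Nfib, had -1.76 ± 0.40 at 100728_at against -0.32 ± 0.23. Ptprd had 3.69 ± 0.35 at 93896_at, which passed the filter only through the transgenic pools, as 100728_at of Mpdz did only through the control pools. Next to Nfix, whose change at 101930_at was 5.07, the tested genes on 1 side were Lyl1 (0.07 ± 0.33), Trmt1 (-0.67 ± 0.20) and Ier2 (0.32 ± 0.16). On the other side Farsa had -0.51 ± 0.18, and Calr and Syce2 were too dim to test. None of the tested genes was called.

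The probe sets most like those of the family were sought over the 4 arrays by the root mean square (RMS) difference of log2 floored values, each centred on its own mean, among 6747 tested probe sets of other single genes. With 4 arrays in 2 groups, this mainly finds genes with an equal change. For a probe set whose control pools lie under the floor, the floor sets the size of the change and with it the order of likeness; this holds for Nfia 92893_at and, among the genes named next, for Klf13 and Elavl3. Nearest to Nfix 101930_at was Gpd2, the mitochondrial glycerol phosphate dehydrogenase (RMS difference 0.17), then the transcription factor gene Klf13 (0.19) and Cd47, a surface protein that restrains phagocytosis (0.20). Nearest to Nfib 99440_at were again Gpd2 (0.084) and Cd47 (0.17), then Elavl3, a neuronal RNA-binding protein (0.18). The second probe sets of Klf13 and Cd47 had log2 changes of -1.22 and -0.12, so these genes, like Nfix, were read differently by their 2 probe sets. Gpd2, read by 98984_f_at, and Elavl3 had no second single-gene probe set to compare. Whether the Gpd2 probes bind other transcripts was not tested. Nearest to Nfic 92241_at were Ext1, an enzyme of heparan sulphate synthesis (0.020), Cacna2d1, a calcium channel subunit (0.047), and the centriolar satellite gene Pcm1 (0.068). With the floor in place, nearest to Nfia 92893_at were Tia1, an RNA-binding protein of stress granules (0.036), Bpnt2, a nucleotide phosphatase (0.044), and the small Maf gene Mafg (0.083). Bpnt2 and Mafg also had a second tested probe set, with log2 changes of -0.0014 and 0.68.

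Genes that NFI proteins are known to act on in glia, or that mark the glia they help to form, split in direction. Of 12 such genes 7 were measured and tested, each read from its brightest tested probe set, and 2 rose, 1 fell and 4 were not called. The median log2 change was -0.47, against -0.03 over all 7453 tested probe sets, of which 5.46% were called higher and 4.56% lower. Fabp7, a fatty acid binding protein of radial glia whose promoter NFI binds, gave 664 and 616.7 for the control arrays against 1786.6 and 1946.1 for the transgenic arrays. Its transgenic pools lay well above its control pools (log2 change 1.54 ± 0.12, adjusted p = 3.27e-05). The gene lists were chosen with earlier results of these data known, so the adjusted p-values of their genes are a description. Aqp4, the water channel of astrocyte endfeet, read 36.7 and 47.5 against 424.3 and 684.5, again without overlap (log2 change 3.69 ± 0.26). Its second probe set, 102703_s_at, read 35.1 and 35.4 against 105.4 and 217.3 (2.10 ± 0.36). Both Aqp4 probe sets passed the brightness filter only through the transgenic pools, so a difference was built into their passing and no p-value is given as support; of the 3 calls of this list, 2 were of genes with both groups above the filter.

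S100b, a calcium-binding protein of astrocytes, read 689.4 and 612.1 against 390.4 and 424.3, and so fell (-0.67 ± 0.14, adjusted p = 0.0171). Gfap, the astrocyte filament gene on whose promoter NFI acts, gave control values of 492.9 and 511.3 and transgenic values of 446.7 and 287.7 at 94144_g_at. Its transgenic pools were unequal, and the change of -0.49 ± 0.20 did not pass (adjusted p = 0.176). The glutamine synthetase gene Glul had -0.47 ± 0.19 and Apcdd1, a Wnt inhibitor induced by NFIA in glial progenitors, -0.48 ± 0.18, and neither passed. Gfap and Glul each had a second, dimmer tested probe set with a change smaller than its SE. These were 94143_at of Gfap, at -0.10 ± 0.33, and 161826_r_at of Glul, at -0.04 ± 0.19. Slc1a2, the main glutamate transporter of astrocytes, had -0.01 ± 0.19. Single pools decided some of these calls. The adjusted p of S100b was 0.0804 without the intensity trend, and with 1 pool left out it was 0.0646 (control replicate 1), 0.0910 (transgenic replicate 1) and 0.0694 (transgenic replicate 2). That of Gfap was 0.0460 without transgenic replicate 1 and that of Glul 0.00607 without control replicate 1, both as falls.

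Among genes of neurons and progenitors that are described as NFI targets or mark the progenitors in which NFI acts, the calls were rises. Of 13 genes 10 were measured and 9 tested, and 3 rose, 0 fell and 6 were not called, with a median log2 change of 0.64. Over all 7453 tested probe sets 5.46% were called higher and 4.56% lower, with a median of -0.03. Cdh2, the adhesion protein N-cadherin and an NFI target in cerebellar granule neurons, gave 319.2 and 298.6 for the control arrays against 741.5 and 877.1 for the transgenic arrays (1.39 ± 0.15, adjusted p = 0.000255). Efnb1, the ligand ephrin B1 and another target in those neurons, read 67.7 and 58.5 against 176.7 and 137.6 (1.31 ± 0.25, adjusted p = 0.00934). In both genes the groups were clearly apart. This list too was chosen with earlier results known, and its adjusted p-values are a description.

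Eomes, a transcription factor of intermediate progenitors, read 44.9 and 21 against 95.7 and 88.1 (1.58 ± 0.41), with control pools that differed more from each other than the transgenic pools did. It was called, but passed the brightness filter only through the transgenic pools, so 2 of the 3 rises, those of Cdh2 and Efnb1, were of genes with both groups above the filter. Pax6, of radial glia, had 0.90 ± 0.35 and the receptor Notch1 0.64 ± 0.23, with both transgenic pools above both control pools, and neither passed (adjusted p = 0.142 and 0.121). The other Notch1 probe set, 162204_r_at, was too dim to test and went the other way, with 46.2 and 38.3 in the control and 23.4 and 32.1 in the transgenic pools (-0.62). Ezh2, a histone methyltransferase that NFIB represses, had 0.30 ± 0.36, Nes 0.36 ± 0.21, and the Notch effectors Hes1 and Hes5 -0.14 ± 0.18 and -0.11 ± 0.27. Gabra6, a GABA receptor subunit that NFI drives in cerebellar granule cells, was too dim to test. The adjusted p of Efnb1 was 0.0892 without transgenic replicate 1, and that of Eomes was 0.0921 without control replicate 2, 0.0561 when the floor was raised to the 40th percentile and 0.0733 without the intensity trend. Without control replicate 2, Pax6 and Notch1 passed as rises (adjusted p = 0.0184 and 0.0495). The count of rises was 1 without transgenic replicate 1, that of Cdh2, where Eomes was under the brightness filter, as it also was without transgenic replicate 2. Without the filter on dim probe sets the calls of both lists were lost, with adjusted p-values of 0.0599 for Fabp7, 0.109 for Aqp4, 0.158 for S100b, 0.0968 for Cdh2, 0.194 for Efnb1 and 0.337 for Eomes.

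Factors that work with NFI at promoters or repress through it gave no call. Of 12 genes 9 were measured and 6 tested, 0 rose and 0 fell in the limma fit at an adjusted p under 0.05, and 0 of the 6 had an unadjusted p under 0.05. Their median log2 change was -0.06. Over all tested probe sets 5.46% were called higher and 4.56% lower, so 0 calls among 6 genes lay near that share. Pou3f2, a POU factor that acts with NFI on the Fabp7 promoter, gave control values of 14.7 and 102.6 and transgenic values of 61.3 and 72.3. Its control pools lay on either side of the transgenic pools, and the change of 0.57 ± 0.63 has no settled direction, being -0.62 without control replicate 1 and -0.12 with the floor at the 40th percentile. The co-repressor gene Ski had 0.20 ± 0.12, the general transcription factor genes Gtf2b and Tbp -0.21 ± 0.15 and -0.26 ± 0.25, the glial factor Sox10 -0.12 ± 0.17 and Stat3 0.00 ± 0.22. The glucocorticoid receptor gene Nr3c1, whose protein shares promoters with NFI, gave control values of 23.3 and 11.5 and transgenic values of 19.5 and 54.9, too dim to test.

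**Figure D3:**
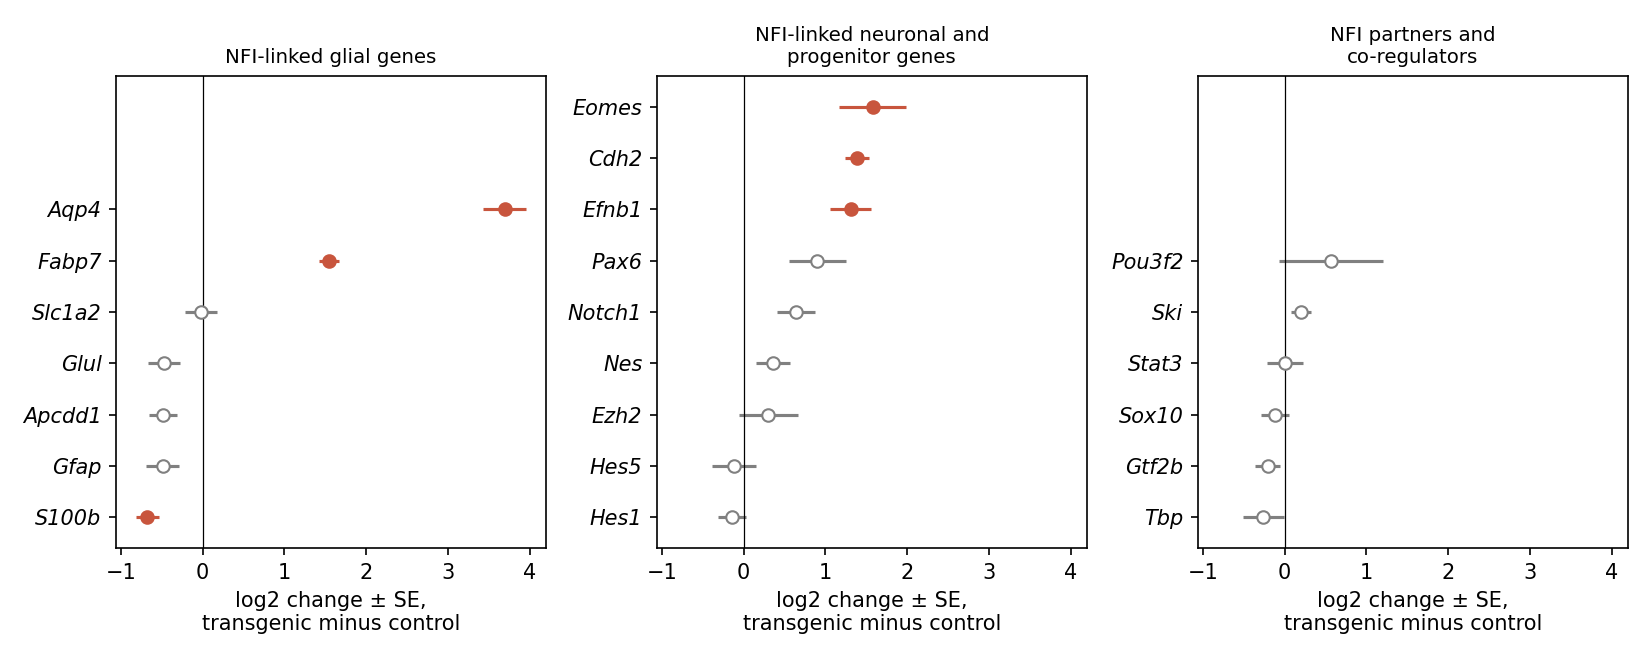
Log2 change (transgenic minus control) with its SE from the limma fit for each tested gene of the 3 lists, filled where the adjusted p was under 0.05. Aqp4 and Fabp7 lie above 0 and S100b below it among the glial genes, Eomes, Cdh2 and Efnb1 lie above 0 in the middle list, and every partner gene is unfilled.

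The tissue is bulk cortex, in which fewer cells of a type and less RNA per cell cannot be told apart. Markers of the cell types and neighbouring regions that a dissection could hold were therefore read beside the NFI values. The marker lists were chosen with earlier results of these data known, and calls could arise only among tested markers. Every measured marker was tested unless a smaller number is given. Over all 7453 tested probe sets 5.46% were called higher and 4.56% lower. Of cortical projection neuron markers, 6 of 10 were measured. At their brightest probe sets Tbr1, Fezf2, Neurod6 and Cux1 read 216 or more on every array. Neurod2 read lower in the control pools (167.2 and 132.1). Camk2a read lower on every array, with 136.6 and 121 in the control and 31.2 and 62.9 in the transgenic pools. Among these markers Neurod2 rose and Camk2a fell, the latter passing the brightness filter only through the control pools, and summed intensity was 2835 to 3166 in control and 3092 to 3394 in transgenic pools. Of 9 measured astrocyte markers 2 rose (Aqp4 and Fabp7) and 1 fell (S100b), with sums of 8725 to 9128 and 9211 to 10069. This list shares 6 measured genes with the NFI-linked glial genes, so its calls are the same ones. Of 8 interneuron markers 0 rose and 2 fell, Npy and Sst, with sums of 12792 to 13410 and 11290 to 12145.

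Both measured blood markers, Hba-a1 of haemoglobin and Alas2 of haem synthesis, rose, and their sum was 2396 to 2779 in control and 6945 to 8473 in transgenic pools. Of 5 measured olfactory bulb and neuroblast markers Eomes and Th rose and 0 fell (858 to 1289 against 1351 to 1543). Of 5 measured cerebellar markers, with sums of 655 to 720 against 923 to 1063, 4 were tested, and Zic1 rose and 0 fell. Of 7 measured endothelial markers, with sums of 785 to 806 against 944 to 1058, 5 were tested, and Flt1 rose and 0 fell. Flt1 had a log2 change of 0.85 at its brightest probe set and 3.03 at 98453_at. At 98453_at both control values, 17 and 19.5, lay under the floor, so 3.03 is a lower bound. That probe set passed the brightness filter only through the transgenic pools. Of 9 measured microglial markers, with sums of 2633 to 2738 against 2091 to 2406, 7 were tested, and 0 rose and Tyrobp fell. Ptprc was under the floor on every array.

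The remaining lists gave no call at the brightest probe set of each gene, with 6 oligodendrocyte, 1 oligodendrocyte precursor and 3 striatal markers tested. Among their other tested probe sets 1 was called, 99047_at of the oligodendrocyte gene Mobp, which fell from 521.7 and 690.6 to 256.9 and 342.2 (-1.02 ± 0.19, adjusted p = 0.00955), whereas the brightest Mobp probe set had 0.06 ± 0.15. Sums were 3769 to 4525 against 3566 to 3907 for 7 measured oligodendrocyte markers, with Cnp under the floor on every array, and 503 to 671 against 558 to 640 for the 1 measured marker of oligodendrocyte precursors. For 4 measured striatal markers they were 2019 to 4230 against 2773 to 4164, with Rgs9 under the floor, and for 4 choroid plexus markers 125 to 137 against 93.5 to 94.3, with Kl under the floor and 0 tested. The part of these marker differences in the values of Nfix, Nfib, Nfic and Nfia was not tested.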

How the data were processed

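The authors deposited linear intensities, 1 value for each probe set on each array. The unit was read from the values, and the sources used here do not give the authors' tool or scaling method. The spread of array medians was 1.85% and that of upper quartiles 2.29%, so the values were used as deposited. Of 12488 probe sets, 66 controls were set aside. Genes were named by the platform's annotation, with symbols of 10817 probe sets updated to RefSeq; 10833 had 1 gene, 396 several and 1193 none. No build is named for the probes, so no probe positions are given. Values were floored at the 25th percentile (19.675) and log2-transformed. Differences were tested across all genes with limma 3.58.1 in R 4.3.3 (lmFit, eBayes with intensity trend, two-sided, Benjamini-Hochberg over 7453 probe sets above the 40th percentile), with 2 residual degrees of freedom per probe set. The function was tested on simulated data. The members, gene lists and marker lists were chosen with earlier results of these data known. Named genes were all NFI probe sets, called or preselected list genes, and the 3 nearest profiles per NFI gene. Alternatives were other floors, filters, scalings, priors, a pseudocount of 16, a replicate block and leaving out each pool. Recomputing single list genes under each alternative was chosen after seeing the data. Same-numbered pools were not stated to be paired, and the correlation of their deviations was 0.056.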

Additional observations from a re-analysis of the deposited data

How the results depend on the processing

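No NFI probe set reversed its direction under any alternative, but for some this was fixed in advance. At the 4 with both control pools under the floor, a fall could not appear with that floor or a higher one. The family was also chosen on its rises in this contrast. Nfix 101930_at ranged from 4.71 to 5.22 in log2 change, Nfix 100307_at from 0.055 to 0.28, Nfib 99440_at from 3.85 to 5.05, Nfib 160859_s_at from 3.47 to 5.57 and Nfic 92241_at from 1.18 to 1.64. Dim probe sets followed the floor: Nfia 92893_at ranged from 0.43 to 3.62 and Nfic 93006_at from 0 to 1.20. Nfia 92894_s_at, which gives no direction, ranged from 0 to 0.64. The count of NFI probe sets called, 4, was 2 without the filter on dim probe sets and 2 with the filter at the 60th percentile, which left 2 NFI probe sets tested. It was 4 whichever pool was left out; leaving out 1 pool assumes that the lone pool of its group varies like the other group. The Nfix difference between probe sets, 4.90, was 4.56 with a pseudocount of 16, and could not be computed with the filter at the 60th percentile. Over the array 747 probe sets were called, 48 without the filter on dim probe sets, 395 without the intensity trend and 387 to 745 with 1 pool left out (431 without transgenic replicate 1, 387 without transgenic replicate 2); of those called, 407 were higher and 340 lower, against 272 and 123 without the trend and 34 and 14 without the filter. Without the filter the calls were 0 for NFI-linked glial genes and 0 for neuronal and progenitor genes, and with the filter at the 60th percentile the latter had 1. With 1 pool left out they had 1 to 4. With the replicate block 892 probe sets were called, 4 of them NFI.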
